A study of Homo sapiens and Canis lupus familiaris with 27 samples.

Results

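The 40 genes described here are the mRNAs of 2 oxygen-regulated transcription factor subunits, HIF1A and EPAS1, of genes that these factors are known to switch on, and of the enzymes of glycolysis. They were selected by gene name, from the 25300 gene names found over the count tables of PC-3, LNCaP and CT1258 cells, by a list drawn up with earlier results of these data known. All 40 had a row in the tables of the human cell lines and 27 had one in the canine table. After removal of genes with few reads, the tests covered 39 of them in PC-3, 37 of them in LNCaP and 21 of them in CT1258.

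RNA sequencing of poly(A)-selected RNA was performed on 3 prostate carcinoma cell lines exposed to the indolylmaleimide PDA-66, to characterize the effects of this compound on human and canine prostate carcinoma cells. PC-3 is a human adenocarcinoma line from a bone metastasis, LNCaP is a human line from a lymph node metastasis, and CT1258 is a canine prostate adenocarcinoma line. Each line was given 15 µM PDA-66 for 12 h, 15 µM PDA-66 for 24 h, or 0.15% DMSO, the solvent of PDA-66, for 24 h. Cells of every group grew in medium with 10% fetal bovine serum under humidified air with 5% CO2. The base medium differed between the 3 lines, and the labels name no group kept at low oxygen. Each group held 3 replicates, which the study's methods describe as independent, with the exception of the PC-3 DMSO group, of which replicates 2 and 3 were analysed here, so that 26 of 27 samples entered. All controls are labelled 24 h, so that at 12 h the effect of PDA-66 and the shorter culture cannot be told apart, and the 12 h and 24 h comparisons of a line share the same DMSO samples. Each line descends from 1 tumour, and in bulk RNA fewer cells of a kind and less RNA per cell cannot be told apart.

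Hypoxia-inducible factors (HIFs) are pairs of an alpha subunit and ARNT. Prolyl hydroxylases such as EGLN1 and EGLN3 use oxygen to mark the alpha subunit for destruction through VHL, and when oxygen is short the alpha subunit persists, enters the nucleus and binds the core sequence A/GCGTG of hypoxia response elements. Its targets include the glucose transporters and glycolytic enzymes, which let cells make ATP without oxygen, and genes for pH control, blood vessel growth and mitophagy. Many carcinomas run glycolysis at a high rate even with oxygen present. The level of HIF1A mRNA is not a measure of HIF protein, which was not measured here.

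Promoter sequences from RefSeq (GRCh38.p14) were searched for ACGTG and GCGTG, the cores of the hypoxia response element, on either strand, with overlapping matches counted as 1 site (CACGTG holds ACGTG on both strands). A window was the 250 bases before an annotated transcription start. In the RefSeq table, 35 of the 40 members had 57 windows, and 40 of these windows (70.2%) held at least 1 site, compared with 43.2% of the 35116 windows of all genes and 54.4% of the 14674 windows of genes tested in PC-3. A match of 5 letters is a description of the sequence and does not show binding. The windows of 4 members that fell strongly in PC-3 and of EPAS1, the 1 member that rose there after 12 h, are given 5′ to 3′ on the strand of the gene, with the matches in capitals. CA9 (chr9:35673678-35673927, plus strand), P4HA1 (chr10:73096867-73097116, minus strand) and EPAS1 (chr2:46297157-46297406, plus strand) each hold 1 site, which in CA9 lies 18 to 14 bases before the start. ALDOC (chr17:28576896-28577145, minus strand) holds 4 sites and BNIP3 (chr10:131981924-131982173, minus strand) holds 5.
CA9: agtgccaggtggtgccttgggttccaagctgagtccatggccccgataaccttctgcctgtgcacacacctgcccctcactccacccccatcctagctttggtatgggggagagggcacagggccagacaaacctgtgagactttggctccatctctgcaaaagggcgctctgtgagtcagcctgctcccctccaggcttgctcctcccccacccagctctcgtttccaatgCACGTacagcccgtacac
ALDOC: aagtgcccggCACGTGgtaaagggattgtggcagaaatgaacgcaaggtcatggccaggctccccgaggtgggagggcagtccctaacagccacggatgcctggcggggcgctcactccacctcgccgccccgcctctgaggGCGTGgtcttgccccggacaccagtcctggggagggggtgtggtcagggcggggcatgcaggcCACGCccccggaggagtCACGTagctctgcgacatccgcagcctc
P4HA1: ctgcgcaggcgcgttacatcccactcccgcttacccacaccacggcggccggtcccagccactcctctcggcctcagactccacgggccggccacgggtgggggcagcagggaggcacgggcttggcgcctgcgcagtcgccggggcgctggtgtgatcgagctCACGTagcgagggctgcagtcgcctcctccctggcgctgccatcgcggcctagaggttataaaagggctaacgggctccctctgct
BNIP3: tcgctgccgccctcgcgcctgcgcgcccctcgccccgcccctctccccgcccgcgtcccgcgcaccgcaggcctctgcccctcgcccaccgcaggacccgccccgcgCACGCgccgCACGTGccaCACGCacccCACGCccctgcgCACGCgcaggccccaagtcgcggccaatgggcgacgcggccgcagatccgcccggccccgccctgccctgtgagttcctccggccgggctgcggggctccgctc
EPAS1: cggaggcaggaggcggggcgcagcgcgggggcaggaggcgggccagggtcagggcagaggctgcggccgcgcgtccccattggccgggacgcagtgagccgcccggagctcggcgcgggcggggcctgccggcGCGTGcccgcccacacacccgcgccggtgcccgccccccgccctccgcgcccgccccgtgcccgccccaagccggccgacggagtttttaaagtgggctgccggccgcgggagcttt
The window of SLC2A1, which also fell strongly, holds no site. For VEGFA, STC1, NDRG1, BNIP3L and SLC2A3 no window was at hand.

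The PC-3 libraries held 14650839 to 18091755 counts and the LNCaP libraries 11923105 to 14741883. In CT1258 the DMSO samples held 19909616 to 20976950 counts and the PDA-66 samples 7203534 to 8325867, so that the depth differed with the treatment. The labels were compared with marker genes, as summed CPM (read counts per gene divided by the normalized library size and brought to a common scale). The 6 luminal prostate markers summed to between 2050 and 2870 CPM in LNCaP. They summed to between 16.3 and 33.9 CPM in PC-3, where KLK2 was at 0. The 4 epithelial markers were present in both human lines (331 to 576 CPM in PC-3, 1330 to 2040 CPM in LNCaP). In CT1258 the 5 luminal markers with a row summed to between 16.9 and 29.2 CPM, mostly through SLC45A3 (13.1 to 28.4 CPM). TMPRSS2 was listed at 0, and KLK2 was at 3.33 to 10.8 CPM in DMSO and at 0 in every PDA-66 sample. EPCAM, the only epithelial marker with a row, did not exceed 0.262 CPM, so that the epithelial label could not be checked with these genes. Of the fibroblast markers with a row, LUM was at 262 to 429 CPM, while COL1A1 did not exceed 0.133 CPM and COL3A1 did not exceed 0.298 CPM. Markers of leukocytes and endothelium were at most 40.4 CPM in sum in any sample, and in PC-3 they were lower after PDA-66 (4.92 to 6.34 CPM at 12 h, 9.25 to 11.1 CPM at 24 h) than in DMSO (13.8 to 19.5 CPM), mostly through PECAM1. In LNCaP they were lower too (23.0 to 40.4 CPM in DMSO, 4.91 to 14.8 CPM at 12 h and 6.63 to 7.59 CPM at 24 h), almost entirely through VWF, while the other markers of this list were at or near 0. Fibroblast markers in PC-3 also summed to less at 12 h (7.72 to 10.7 CPM) than in DMSO (14.7 to 16.8 CPM), mostly through COL3A1. In LNCaP they summed to between 19.9 and 128 CPM at 12 h and between 22.3 and 30.1 CPM in DMSO. The high end came mostly from COL1A1 (18.5 to 125 CPM at 12 h). The part of these shifts in the results was not tested. In LNCaP the PDA-66 12 h sample of replicate 2 stood apart from the other 2 samples of its group (TPI1 2296 CPM, compared with 711 and 806 CPM).

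Most of the members fell in PC-3 at both times. After 12 h, 27 of the 39 tested members fell and 1 rose, at an adjusted p under 0.001 (quasi-likelihood F test of edgeR, p-values adjusted by Benjamini and Hochberg's method across the 13777 genes tested). Of all genes, 27.6% passed this threshold, 13% higher and 14.6% lower. The median log2 fold change was -0.67 over the members and -0.01 over all genes. After 24 h, 24 of 39 fell and none rose, compared with 19.3% of all genes (8.88% higher, 10.5% lower), and the members' median was again -0.67. At an adjusted p under 0.05 there were 34 members at 12 h (57% of all genes) and 31 at 24 h (49.9% of all genes). Without replicate 3 of the 12 h group, 18 members passed 0.001 at 12 h (18% of all genes), and those lost were EPAS1, EGLN3, KDM3A, ANKRD37, BHLHE40, WSB1, HK2, ALDOA, TPI1 and ENO1. The plot of log2 fold changes in all 3 lines shows this shift to the left in PC-3 over most roles, apart from the HIF subunits.

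**Figure D1:**
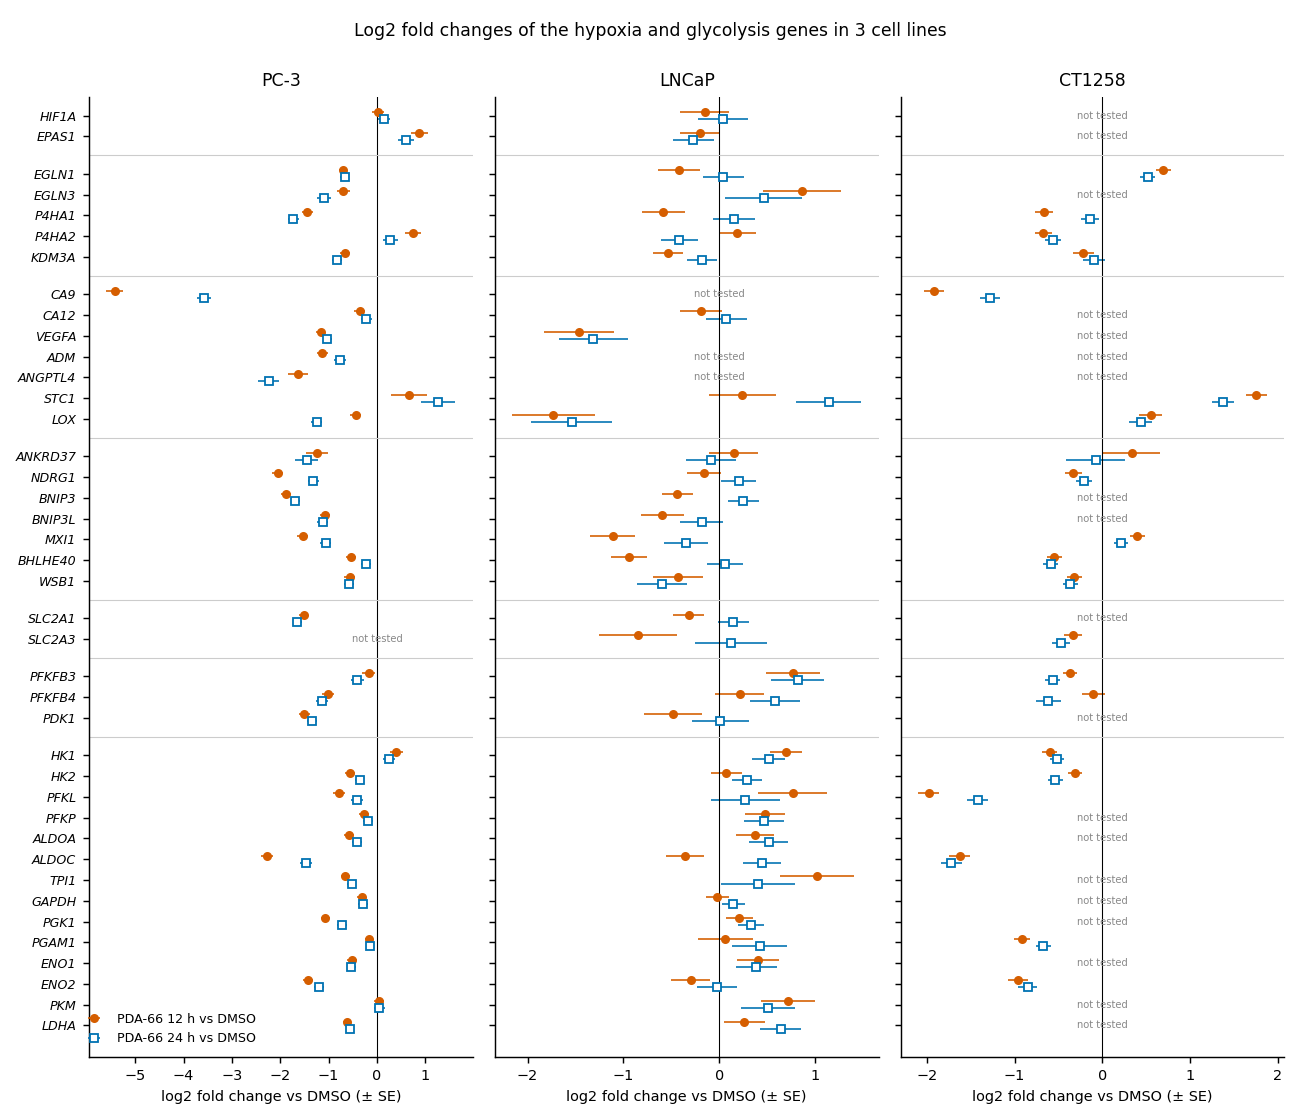
Log2 fold change of each of the 40 genes after PDA-66 relative to DMSO in PC-3, LNCaP and CT1258, grouped by role (from the top, HIF subunits, oxygen-sensing and related enzymes, pH and secreted factors, other HIF targets, glucose transporters, kinases, glycolytic enzymes). Filled circles stand for 12 h, open squares for 24 h and bars for the standard error of the fit, genes without a test are marked, and the horizontal scale differs between panels. In PC-3 33 of 39 tested genes lie below 0 at each time, with CA9 farthest out at -5.43 after 12 h.

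The mRNAs of the HIF alpha subunits did not fall in PC-3. HIF1A, the subunit found in most tissues, was at 457 and 322 CPM in the DMSO samples, at 396, 392 and 393 CPM after 12 h and at 441, 433 and 424 CPM after 24 h. The treated samples lay between the DMSO samples, and the log2 fold changes of 0.01 ± 0.12 (SE, adjusted p = 0.932, edgeR) and 0.15 ± 0.12 (adjusted p = 0.329) did not pass the test. EPAS1, which encodes HIF2-alpha, was at 44.8 and 26.2 CPM in DMSO, at 62.7, 65.3 and 67.4 CPM after 12 h and at 52.0, 51.8 and 57.7 CPM after 24 h. All treated samples were above both DMSO samples, which themselves differed widely. EPAS1 rose 1.83-fold at 12 h (log2 fold change 0.87 ± 0.17, adjusted p = 0.000674), a call lost when any of the PDA-66 samples was left out, and did not pass 0.001 at 24 h (log2 fold change 0.60 ± 0.17, adjusted p = 0.0101). Its 12 h value was 1.32 without replicate 2 of DMSO and 0.55 without replicate 3.

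Among the enzymes that use oxygen and 2-oxoglutarate, 4 of 5 fell at both times. P4HA1, a prolyl hydroxylase that prepares collagen for folding, was at 748 and 564 CPM in DMSO, at 253, 225 and 247 CPM after 12 h and at 189, 209 and 197 CPM after 24 h. The groups did not overlap, and the log2 fold changes were -1.44 ± 0.12 (adjusted p = 4.83e-07) and -1.73 ± 0.12 (adjusted p = 2.47e-07). EGLN1 and EGLN3, the HIF prolyl hydroxylases, fell by 0.70 each on the log2 scale at 12 h, and EGLN3 fell by 1.09 at 24 h. KDM3A, a histone demethylase, fell by 0.67 and 0.83. P4HA2, which carries out the same reaction as P4HA1, was the exception, with log2 fold changes of 0.74 (adjusted p = 0.0017) and 0.28.

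Of the 7 genes for pH control, secreted factors and matrix, 4 fell after 12 h and 5 after 24 h. CA9, a carbonic anhydrase on the cell surface that keeps the cytosol from turning acid, was at 42.9 and 53.5 CPM in the DMSO samples. After 12 h it was at 1.10, 0.98 and 1.24 CPM, from 20, 15 and 21 reads, and after 24 h at 3.91, 3.85 and 4.33 CPM, from 66, 63 and 64 reads. No treated sample came near the DMSO samples, and the 12 h and 24 h samples did not overlap either. CA9 fell 43.0-fold at 12 h (log2 fold change -5.43 ± 0.17, adjusted p = 3.77e-10) and 12.0-fold at 24 h (-3.58 ± 0.14, adjusted p = 9.23e-09), the largest change of any member at each time. On HG19, the build of the human counts, 35.7% of the CA9 exons overlap ARHGEF39 on the opposite strand, and whether the counting used strand is not stated. The log2 fold change of ARHGEF39 was -0.55 (adjusted p = 0.00686) at 12 h.

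ANGPTL4, a secreted inhibitor of lipoprotein lipase, was at 13.2 CPM in both DMSO samples, at 4.58, 4.05 and 4.09 CPM after 12 h and at 2.19, 2.14 and 4.13 CPM after 24 h. Treated and DMSO samples did not overlap, with log2 fold changes of -1.64 ± 0.21 (adjusted p = 2.09e-05) and -2.24 ± 0.22 (adjusted p = 4.70e-06). VEGFA, the growth factor of blood vessels, was at 89.9 and 106 CPM in DMSO, at 42.4 to 44.7 CPM after 12 h and at 47.7 to 48.6 CPM after 24 h, and its log2 fold change of -1.17 at 12 h passed the test (adjusted p = 6.09e-07). ADM, a vasodilating peptide, fell by 1.13 at 12 h. LOX, which cross-links collagen, was at 38.6 and 32.7 CPM in DMSO, at 26.0, 26.1 and 26.6 CPM after 12 h and at 15.5, 15.1 and 14.4 CPM after 24 h. Its levels were ordered from DMSO over 12 h to 24 h without overlap, but only the 24 h difference from DMSO passed 0.001 (log2 fold change -1.25, adjusted p = 2.41e-06, and at 12 h -0.44, adjusted p = 0.00341). CA12 (-0.36 at 12 h), another carbonic anhydrase, and STC1 (0.66 at 12 h and 1.27 at 24 h), a secreted glycoprotein, did not pass 0.001 at either time.

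The 7 other HIF targets all fell at 12 h, with a median log2 fold change of -1.24, and 6 of them fell at 24 h. NDRG1, a stress-response protein, was at 1704 and 1459 CPM in DMSO, at 353, 385 and 403 CPM after 12 h and at 581, 639 and 685 CPM after 24 h. The 24 h samples stood between the other groups, with log2 fold changes of -2.06 ± 0.11 (adjusted p = 9.96e-09) at 12 h and -1.32 ± 0.11 (adjusted p = 1.14e-06) at 24 h. BNIP3, which directs mitochondria to autophagy, was at 280 and 315 CPM in DMSO, at 84.6, 75.5 and 81.6 CPM after 12 h and at 92.7, 96.6 and 86.9 CPM after 24 h. Treated levels were far below the DMSO levels at both times, with log2 fold changes of -1.88 ± 0.097 (adjusted p = 8.60e-09) and -1.69 ± 0.097 (adjusted p = 6.70e-08). Its relative BNIP3L fell by 1.07 at 12 h and 1.13 at 24 h. The MYC antagonist MXI1 fell by 1.54 and 1.06, ANKRD37 by 1.24 and 1.46, and WSB1, a ubiquitin ligase subunit, by 0.57 and 0.58. The repressor BHLHE40 fell by 0.54 at 12 h, and its 24 h value of -0.23 (adjusted p = 0.0916) did not pass the test. For BNIP3, 44 named pseudogenes could share reads, and 40.3% of the exon sequence of ANKRD37 overlaps UFSP2 on the opposite strand. Larger overlaps, with another protein-coding gene on the same strand, cover 55.8% of the exon sequence of EGLN1 and 42.8% of that of ALDOA. Whether the counting included those genes is not stated.

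The decrease in PC-3 included the mRNA of a glucose transporter and was uneven along glycolysis. SLC2A1, the basal glucose transporter GLUT1, was at 316 and 299 CPM in DMSO, at 106, 107 and 109 CPM after 12 h and at 88.2, 98.6 and 108 CPM after 24 h. Its levels did not overlap with DMSO, and it fell 2.86-fold (adjusted p = 6.22e-08) and 3.13-fold (adjusted p = 9.32e-08). SLC2A3, another glucose transporter, had no read in any PC-3 sample. PDK1, which shuts pyruvate dehydrogenase and so keeps pyruvate out of mitochondria, fell by 1.5 at 12 h and 1.35 at 24 h, and PFKFB4, which makes an activator of phosphofructokinase, fell by 1.01 and 1.13. PFKFB3, a related kinase, had values of -0.17 and -0.41 that did not pass 0.001.

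Of the 14 glycolytic enzymes, 9 fell after 12 h and 6 after 24 h, with medians of -0.57 and -0.41, and none rose at 0.001. ALDOC, the brain-type aldolase, was at 54.0 and 47.8 CPM in DMSO, at 9.82, 11.4 and 10.5 CPM after 12 h and at 16.8, 18.6 and 19.9 CPM after 24 h. The 3 groups did not overlap, and ALDOC fell 4.83-fold at 12 h (log2 fold change -2.27 ± 0.12, adjusted p = 9.96e-09) and by 1.47 ± 0.12 on the log2 scale at 24 h (adjusted p = 8.27e-07). ENO2, the neuronal enolase, fell by 1.43 and 1.2. The abundant PGK1, which makes the first ATP of the pathway, was at 2823 and 2415 CPM in DMSO, at 1227 to 1283 CPM after 12 h and at 1542 to 1629 CPM after 24 h (log2 fold changes -1.07 and -0.72). LDHA, which turns pyruvate into lactate, fell by 0.62 and 0.56, TPI1 by 0.66 and 0.52 and ENO1 by 0.52 and 0.53. HK2, PFKL and ALDOA (-0.56, -0.79 and -0.58 at 12 h) passed 0.001 at 12 h, and their 24 h values of -0.36, -0.41 and -0.42 did not. HK1, the constitutive hexokinase (0.40 at 12 h), PFKP (-0.27), GAPDH (-0.32), PGAM1 (-0.16) and PKM, the last enzyme of the pathway (0.04), did not pass 0.001 at either time. At an adjusted p under 0.05, 3 members were higher at 12 h, HK1 among them. Pseudogenes could share reads with GAPDH (65 named), PGAM1 (13), LDHA (6), PKM (5), TPI1 (4) and ENO1 (4).

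**Figure D2:**
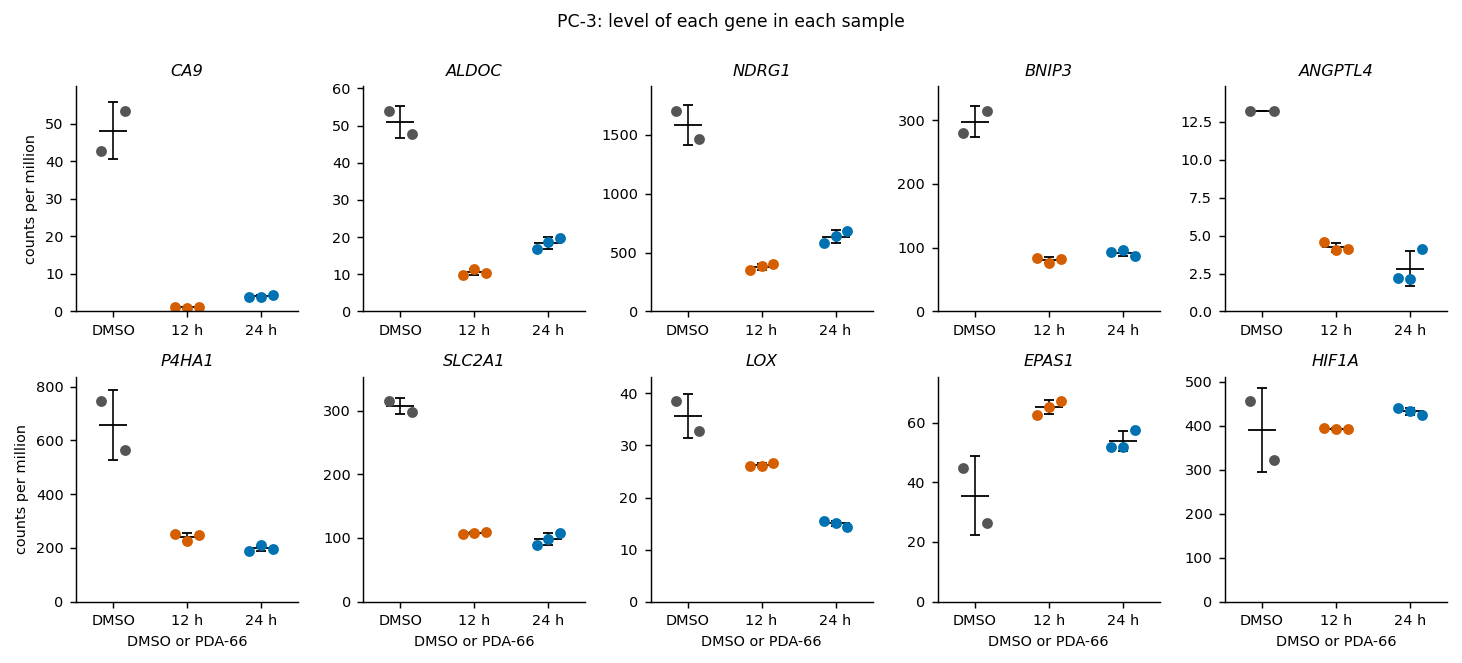
Level of 10 members in each PC-3 sample, in CPM (vertical axes start at 0), for 2 DMSO samples and 3 samples at each time of PDA-66. Points are samples and bars the mean ± SD. CA9, ALDOC and NDRG1 were lowest at 12 h and partly higher again at 24 h, LOX was lowest at 24 h, and HIF1A overlapped between the groups.

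The 24 h samples of PC-3 were also compared directly with the 12 h samples. Of 39 members, 3 were higher and 1 was lower at 24 h than at 12 h, compared with 1.41% of all genes (0.777% higher, 0.631% lower). CA9 was 3.6-fold higher (log2 difference 1.85 ± 0.20, adjusted p = 8.43e-05), ALDOC was higher by 0.80 ± 0.12 (adjusted p = 0.000736) and NDRG1 by 0.74 ± 0.098 (adjusted p = 0.000461). All 3 were still below DMSO at 24 h. LOX was lower by 0.80 ± 0.10 (-0.80, adjusted p = 0.000341). At an adjusted p under 0.05, MXI1 (0.47), PFKL (0.38) and PGK1 (0.35) were higher at 24 h too, which made 7 members, compared with 10.1% of all genes (5.59% higher, 4.5% lower). The number of members past 0.001 depended on single samples, with 1 when any PDA-66 sample other than replicate 3 of the 24 h group was left out and 0 without that sample.

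Further genes of the same pathways were counted from lists, to be read beside the 27.6% of all genes that passed 0.001 at 12 h and the 19.3% at 24 h. Of 11 tested components of the HIF machinery (ARNT, VHL and the ubiquitin ligase around it, coactivators), 1 rose and 1 fell in PC-3 at 12 h, and 2 rose and 1 fell at 24 h. VHL, which recognizes the hydroxylated alpha subunit, fell by 0.80 at 12 h (adjusted p = 5.11e-05), CUL2, the scaffold of that ligase, rose by 0.62, and ARNT2 rose by 2.05 at 24 h. Of 27 further HIF targets, 14 fell and 2 rose at 12 h and 13 fell and 1 rose at 24 h, with medians of -0.60 and -0.69. SPAG4 fell by 2.93 at 12 h and PPFIA4 by 2.79 at 24 h. Among 11 further glycolysis genes 1 rose and 2 fell at 12 h, with PGAM2 at -2.22 and PGM1 at -0.76. Among 10 genes for the entry of pyruvate into mitochondria 2 rose and 2 fell, with PDK4, another pyruvate dehydrogenase kinase, at -1.57, and its opponent PDP1 rose by 0.72 at 24 h.

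In LNCaP no member passed an adjusted p under 0.001 at either time. The spread between replicates was larger in this line, with a biological coefficient of variation of 0.24 compared with 0.0971 in PC-3, and only 0.0076% of the 13156 genes tested passed this threshold at 12 h and 0% at 24 h. At an adjusted p under 0.05, 4 of 37 members fell and 1 rose at 12 h, compared with 9.14% of all genes (4.52% higher, 4.62% lower), and 0 passed at 24 h, compared with 2.92% of all genes. At an unadjusted p under 0.05 there were 12 members at 12 h and 11 at 24 h. The members' median log2 fold change was -0.15 at 12 h (all genes 0.03) and 0.15 at 24 h (all genes -0.01).

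VEGFA was at 42.1, 109 and 129 CPM in the LNCaP DMSO samples, at 29.8, 44.1 and 27.8 CPM after 12 h and at 37.5, 36.7 and 38.6 CPM after 24 h. Replicate 1 of DMSO lay at the level of the treated samples, and the groups overlapped at 12 h (log2 fold change -1.46 ± 0.36, adjusted p = 0.0370). LOX was at 5.29, 21.8 and 14.3 CPM in DMSO, at 4.78, 3.29 and 4.30 CPM after 12 h and at 4.13, 5.36 and 4.68 CPM after 24 h. Its replicate 1 of DMSO was again near the treated samples, above all 12 h samples and within the range of the 24 h samples (at 12 h -1.73 ± 0.43, adjusted p = 0.0370). MXI1 was at 71.4, 79.7 and 80.3 CPM in DMSO, at 45.4, 22.5 and 39.2 CPM after 12 h and at 62.3, 61.5 and 57.9 CPM after 24 h. The 3 groups did not overlap, with the lowest levels at 12 h (-1.11 ± 0.24, adjusted p = 0.0226). BHLHE40 was at 32.9, 23.6 and 37.5 CPM in DMSO, at 15.5, 16.5 and 17.0 CPM after 12 h and at 34.1, 31.5 and 32.3 CPM after 24 h. Its 12 h samples were below all others (-0.94 ± 0.19, adjusted p = 0.0181), and its 24 h samples lay within the range of DMSO. HK1 was the member that rose, from 163, 122 and 140 CPM in DMSO to 199, 273 and 217 CPM after 12 h (0.70 ± 0.17, adjusted p = 0.0345). It was at 202 to 203 CPM after 24 h, again above every DMSO sample (0.51 ± 0.17, adjusted p = 0.130). All 5 calls were lost without replicate 3 of DMSO, and the highest adjusted p of each with a sample left out was between 0.0775 and 0.153.

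HIF1A in LNCaP was at 183, 211 and 189 CPM in DMSO, at 211, 98.7 and 215 CPM after 12 h and at 199, 201 and 199 CPM after 24 h. Replicate 2 of the 12 h group was the only sample apart from the rest, and neither time passed the test (-0.15 ± 0.26 and 0.04). EPAS1 was at 11.4 to 16.1 CPM in DMSO, 9.39 to 13.6 CPM after 12 h and 9.69 to 12.3 CPM after 24 h, with overlap between all groups. CA9, the member with the largest change in PC-3, had 1 read in each of 2 LNCaP samples and none in the others, and with ADM and ANGPTL4 it was not tested. NDRG1 was at 127 to 137 CPM in DMSO, 94.9 to 150 CPM after 12 h and 144 to 154 CPM after 24 h, so that its 24 h samples were above the DMSO samples. ALDOC (89.3 to 121 CPM in DMSO, 129 to 150 CPM after 24 h) and BNIP3 (178 to 231 CPM in DMSO, 235 to 248 CPM after 24 h) were also above DMSO at 24 h without overlap. At 12 h BNIP3 was at 127 to 173 CPM, below every DMSO sample, while ALDOC (64.1 to 101 CPM) overlapped with DMSO. NDRG1, ALDOC and BNIP3 did not pass 0.05 at either time. Of the 14 glycolytic enzymes, 11 had values above 0 at 12 h (median 0.32, all genes 0.03) and 13 at 24 h (median 0.41, all genes -0.01). HK1 at 12 h was the only one to pass 0.05. Replicate 2 of the 12 h group was its highest sample for every glycolytic enzyme except GAPDH, PGAM1 and LDHA, for which it was the lowest. For PKM it was at 1828 CPM, compared with 853 and 949 CPM, and for ENO1 at 2709 CPM, compared with 1447 and 1650 CPM.

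**Figure D3:**
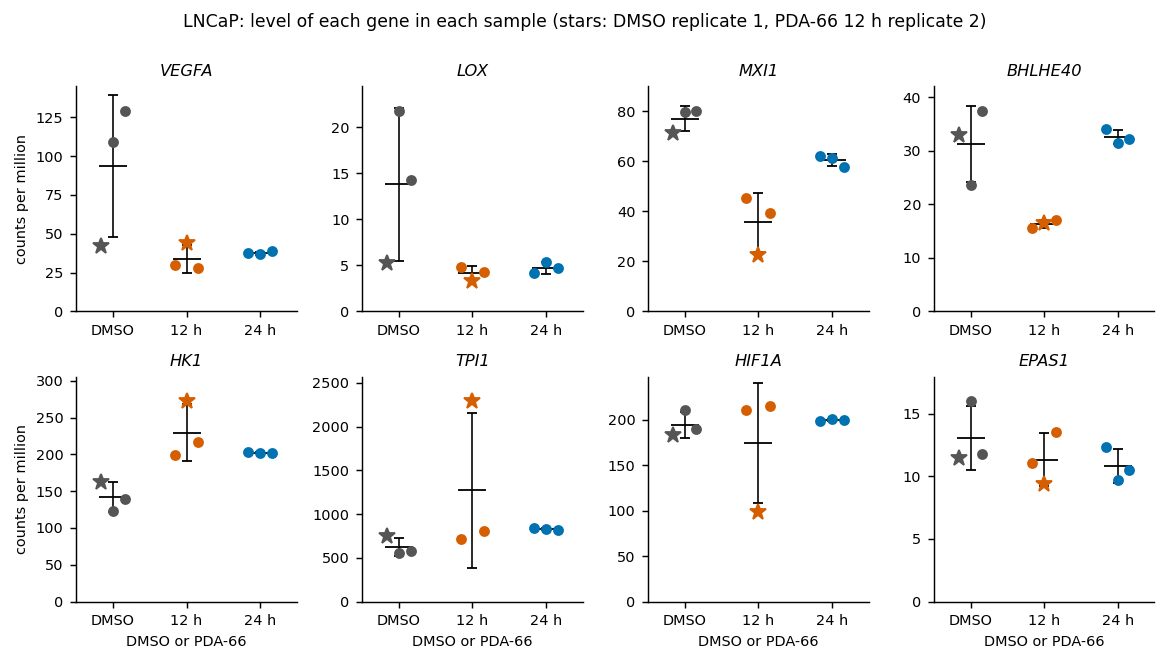
Level of 8 members in each LNCaP sample, in CPM (vertical axes start at 0), with 3 samples in each group. Points are samples, bars the mean ± SD, and stars mark DMSO replicate 1, which lay near the treated samples for VEGFA and LOX, and PDA-66 12 h replicate 2, which lay apart for TPI1 (2296 CPM) and HIF1A (98.7).

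Single samples decided how many LNCaP members passed. Without replicate 2 of the 12 h group, 11 members passed an adjusted p under 0.05 at 12 h (1 higher, compared with 29.1% of all genes) and 17 at 24 h (13 higher, compared with 27.9% of all genes), since all groups share 1 estimate of the spread. TPI1, a triose phosphate isomerase shown for this sample after its values were seen, was at 747, 557 and 577 CPM in DMSO and at 815 to 846 CPM after 24 h. PFKL, a phosphofructokinase, behaved in the same way at 12 h, at 143, 430 and 166 CPM. Without replicate 3 of DMSO, 0 members passed 0.05 at 12 h, and without replicate 2 of DMSO or replicate 3 of the 12 h group 1 passed. With a correction for GC content and transcript length, chosen after seeing the data, 16 members passed 0.05 at 12 h and 10 at 24 h (28.6% and 16.7% of all genes). Of the further lists, 4 of 25 further HIF targets passed 0.05 at 12 h, compared with 9.14% of all genes, namely CXCR4 (-2.04), TMEM45A (-1.46), PLOD2 (-1.21) and JMJD6 (0.97), and no gene of these lists passed 0.001. The 24 h and 12 h samples of LNCaP did not differ in any member at 0.05 (0% of all genes, and 10 members at an unadjusted p under 0.05).

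CT1258 showed changes in both directions. After 12 h, 10 of the 21 tested members fell and 3 rose, and after 24 h 10 fell and 2 rose, at an adjusted p under 0.001. Of the 9886 genes tested, 44.3% passed at 12 h (22.2% higher, 22.1% lower) and 33.8% at 24 h (16.6% higher, 17.2% lower). Replicate 2 of DMSO stood apart from the other DMSO samples (CA9 687 CPM, compared with 534 and 485 CPM). Without it, 14 members fell and 4 rose at 12 h (56% of all genes passed). At 24 h 13 fell and 2 rose (46.6% of all genes). Member medians were -0.34 and -0.51, compared with 0.00 and -0.01 over all genes. A further 13 members, among them HIF1A, VEGFA, PGK1 and LDHA, had no row in the canine table, and EPAS1, EGLN3, GAPDH and ENO1 were listed at 0 in every sample. Because GAPDH and ENO1 are used by every cell, a value of 0 in this table does not show that a gene was silent. CA12 and ANGPTL4 had reads but too few for the test, and neither alpha subunit could be followed.

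Of the 6 glycolytic enzymes tested in CT1258, 5 fell at 12 h (median -0.94) and 6 at 24 h (median -0.76). PFKL was at 271, 305 and 249 CPM in DMSO, at 64.3, 60.4 and 84.3 CPM after 12 h and at 99.5, 110 and 98.9 CPM after 24 h. Treated samples were far below DMSO and lowest at 12 h, with log2 fold changes of -1.98 ± 0.12 (adjusted p = 1.49e-08) and -1.42 ± 0.12 (adjusted p = 3.74e-07). ALDOC was at 69.4, 80.6 and 63.0 CPM in DMSO, at 22.7, 20.4 and 25.9 CPM after 12 h and at 22.1, 23.0 and 19.5 CPM after 24 h (-1.63 ± 0.12, adjusted p = 9.56e-08, and -1.72 ± 0.12, adjusted p = 9.87e-08). ENO2 was at 145 to 195 CPM in DMSO, 79.0 to 90.2 CPM after 12 h and 87.4 to 97.1 CPM after 24 h (-0.96 and -0.85). PGAM1, the phosphoglycerate mutase, was at 1432 to 1655 CPM in DMSO, 760 to 869 CPM after 12 h and 910 to 973 CPM after 24 h (-0.91 and -0.67). For each of these 4 enzymes the treated and DMSO samples did not overlap. HK1 fell by 0.60 and 0.51, and HK2 had -0.31 (adjusted p = 0.00325) at 12 h and fell by 0.54 at 24 h.

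CA9 in CT1258 was at 534, 687 and 485 CPM in DMSO, at 143, 160 and 147 CPM after 12 h and at 239, 228 and 233 CPM after 24 h. The 3 groups did not overlap, and CA9 fell at 12 h (log2 fold change -1.92 ± 0.12, adjusted p = 1.29e-08) and at 24 h (-1.28 ± 0.11, adjusted p = 6.28e-07). The repressor BHLHE40 fell by 0.55 and 0.59, P4HA2 by 0.67 and 0.56 and the kinase PFKFB3 by 0.37 and 0.57. P4HA1 fell by 0.67 at 12 h, with a value of -0.14 at 24 h. KDM3A (-0.22 at 12 h), NDRG1 (-0.33), WSB1 (-0.32), ANKRD37 (0.33), the transporter SLC2A3 (-0.34), PFKFB4 (-0.10) and LOX (0.55) did not pass 0.001 at either time.

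STC1, a secreted glycoprotein involved in calcium and phosphate balance, showed the largest increase in CT1258, from 230, 252 and 222 CPM in DMSO to 835, 846 and 692 CPM after 12 h and 722, 517 and 585 CPM after 24 h. All treated samples were above all DMSO samples (1.75 ± 0.12, adjusted p = 4.26e-08, and 1.37 ± 0.12, adjusted p = 6.28e-07). EGLN1, the main HIF prolyl hydroxylase, rose from 160, 159 and 144 CPM to 255, 255 and 239 CPM after 12 h and 199, 237 and 227 CPM after 24 h. These groups did not overlap (0.69 ± 0.086, adjusted p = 7.82e-06, and 0.52 ± 0.086, adjusted p = 0.000155), and the 24 h call was lost without replicate 2 or replicate 3 of the 24 h group. MXI1 was at 93.0 to 101 CPM in DMSO, 125 to 133 CPM after 12 h and 104 to 121 CPM after 24 h. It passed the test at 12 h only (0.40 ± 0.081, adjusted p = 0.000544, and 0.21, adjusted p = 0.0355, at 24 h). The 12 h call was not kept in every edgeR fit with a sample left out (highest adjusted p = 0.00435). Between 24 h and 12 h no member passed 0.001, compared with 2.13% of all genes (0.85% higher, 1.28% lower), and 5 passed 0.05 (19.3% of all genes, 9.08% higher and 10.2% lower), with CA9 (0.64), PFKL (0.56) and P4HA1 (0.53) higher and PFKFB4 (-0.51) and STC1 (-0.38) lower at 24 h.

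**Figure D4:**
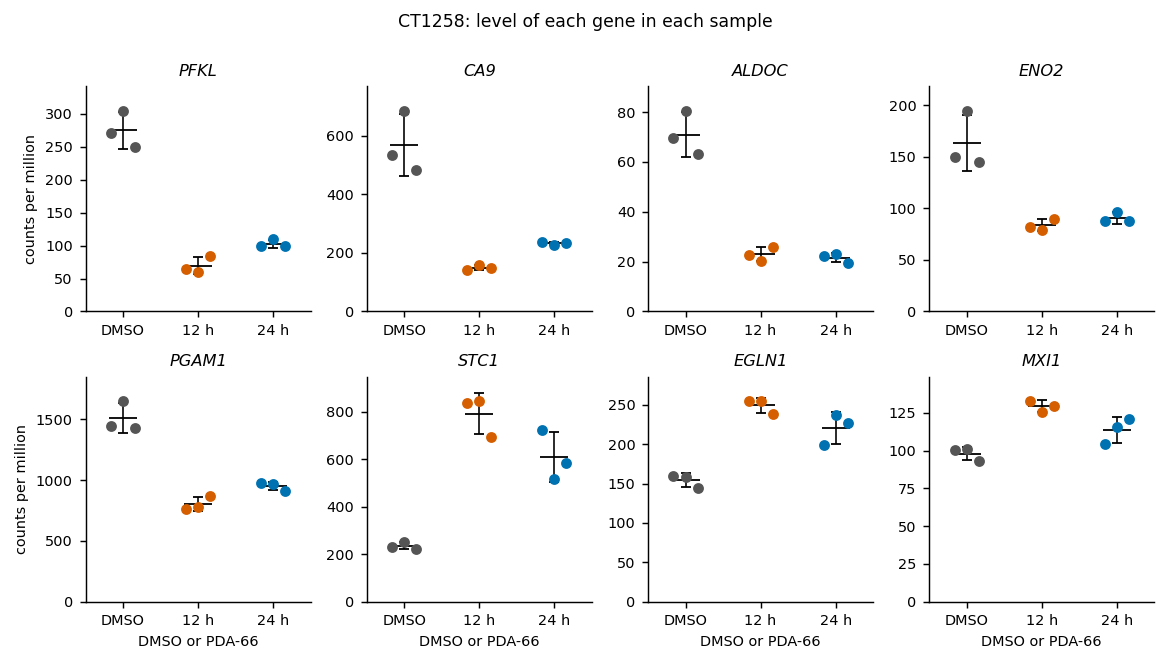
Level of 8 members in each CT1258 sample, in CPM (vertical axes start at 0), with 3 samples in each group. Points are samples and bars the mean ± SD. PFKL, CA9, ALDOC, ENO2 and PGAM1 were lower after PDA-66 without overlap, and STC1, EGLN1 and MXI1 were higher.

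In CT1258 the changes of all genes moved with the GC content of their transcripts, taken from the human transcript of the same name (Spearman's rho -0.62 at 12 h and -0.63 at 24 h over 8673 genes, described across genes, which are not independent). In PC-3 the corresponding values were -0.07 and -0.08, and in LNCaP they were 0.24 and -0.015. For LNCaP at 24 h against 12 h the value was -0.42. The counts were therefore corrected per sample for GC content and length, a step chosen after seeing the data. With the correction, 12 members fell and 2 rose at 12 h, and 13 fell and 2 rose at 24 h, compared with 36.5% and 26.7% of all genes. The direction of the leading members was kept, but their changes were smaller. PFKL changed from -1.98 to -1.39 at 12 h and from -1.42 to -0.85 at 24 h, CA9 from -1.92 to -1.25 and from -1.28 to -0.72, and ENO2 from -0.96 to -0.55 and from -0.85 to -0.51. ALDOC was at -1.14 and -1.32, STC1 at 1.44 and 1.11 and EGLN1 at 0.54 and 0.39 after the correction. MXI1 lost its call (0.11, adjusted p = 0.132, at 12 h). PFKFB3 lost its call at 12 h (0.01) and at 24 h (-0.24, adjusted p = 0.00317). P4HA1 (-1.09 at 12 h and -0.51 at 24 h), WSB1 (-0.77 and -0.73), KDM3A (-0.59 and -0.39) and SLC2A3 (-0.53 and -0.63) passed 0.001 at both times only with it. The correction rests on human sequences, and depth, GC content and treatment cannot be told apart in these samples.

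**Figure D5:**
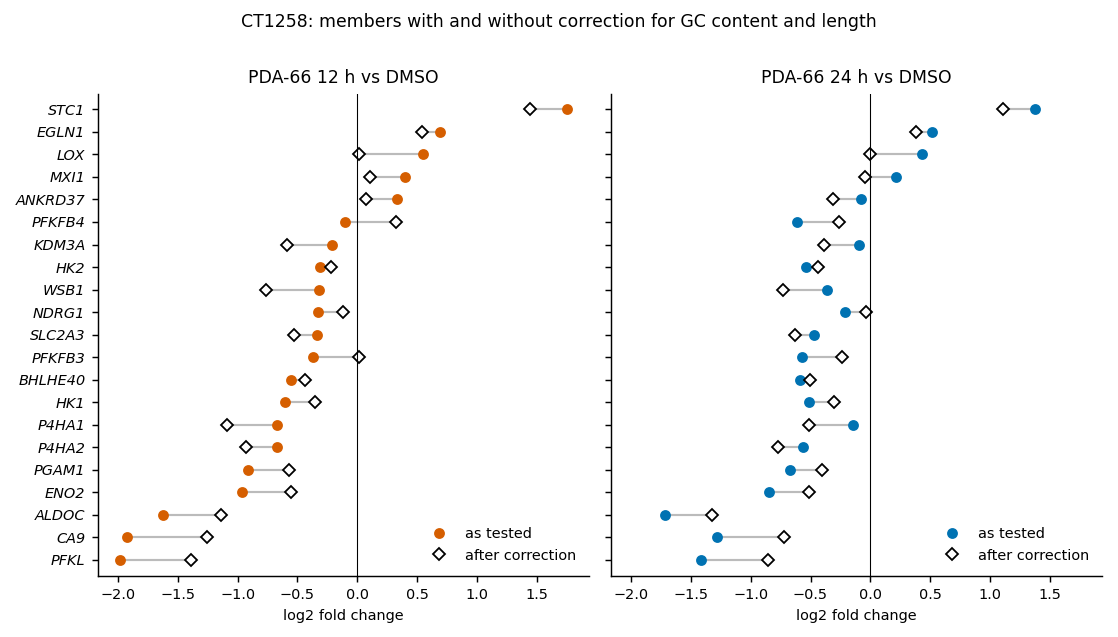
Log2 fold change of the 21 tested members in CT1258 after 12 h (left) and 24 h (right) of PDA-66 relative to DMSO, as tested (filled circles) and after correction for GC content and length (open diamonds), joined by lines. Most points move, with PFKL going from -1.98 to -1.39 at 12 h, and MXI1 and LOX move to near 0.

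The further lists in CT1258 are to be read beside the 44.3% of all genes that passed 0.001 at 12 h and the 33.8% at 24 h. In the lists, 2 of 10 components of the HIF machinery rose and 3 fell in CT1258 at both times, with TCEB2 at -1.17 and TCEB1, both elongins of the VHL complex, at 0.88 at 12 h. Of 19 further HIF targets 7 fell and 2 rose at 12 h and 6 fell and 1 rose at 24 h. DDIT4, an inhibitor of mTORC1 signalling, fell by 2.90 at 12 h (-2.74 at 24 h), and SLC16A3, the lactate exporter, fell by 2.10 and 1.33. Of 7 further glycolysis genes 2 fell and 1 rose at 12 h, with ENO3 at -1.09 and BPGM at 1.01, and 3 fell and 1 rose at 24 h. Of 9 genes for the entry of pyruvate into mitochondria, 1 fell at each time (PDK2, -1.14 and -1.03).

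Whether the cell lines differed in their response was tested as an interaction in a single edgeR fit over the 11736 genes shared by name, with an adjusted p under 0.05 as the threshold. All lines share the estimate of the spread of a gene in this fit. The SE and adjusted p of a pair therefore also carry the spread of the remaining line, and the spread was largest in LNCaP. Of 24 members tested in both PC-3 and LNCaP, the response differed for 13 at 12 h (11 lower and 2 higher in PC-3) and 12 at 24 h (11 lower, 1 higher), compared with 19.6% and 9.7% of all genes. At 12 h the largest differences were those of ALDOC (-1.87 ± 0.22, adjusted p = 4.58e-06) and NDRG1 (-1.85 ± 0.19, adjusted p = 6.27e-07), whose treated PC-3 samples were far below DMSO. At 24 h they were those of ALDOC (-1.89 ± 0.22, adjusted p = 9.73e-06) and P4HA1 (-1.86 ± 0.25, adjusted p = 3.74e-05). CA9, which was barely detected in LNCaP, could not be compared between the human lines.

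Between PC-3 and CT1258, 12 of 20 members tested in both differed at 12 h (9 lower and 3 higher in PC-3) and 10 of 20 at 24 h (8 lower, 2 higher), compared with 30.1% and 21.2% of all genes. CA9 fell in both lines and fell further in PC-3, by -3.52 ± 0.26 at 12 h (adjusted p = 3.17e-09) and -2.31 ± 0.23 at 24 h (adjusted p = 5.73e-07). EGLN1 and MXI1 moved in opposite directions, lower in PC-3 and higher in CT1258, with differences at 12 h of -1.42 ± 0.23 (adjusted p = 5.14e-05) and -1.95 ± 0.24 (adjusted p = 2.26e-06). At 24 h these were -1.19 ± 0.23 (adjusted p = 0.000622) and -1.28 ± 0.24 (adjusted p = 0.000586). The rise of MXI1 in CT1258 did not hold with the correction for GC content and length (0.11 at 12 h and -0.046 at 24 h). The differences of MXI1 between these lines stayed past 0.05 with it. P4HA2 (1.40 ± 0.23, adjusted p = 5.39e-05) and HK1 (0.99 ± 0.19, adjusted p = 0.000346) differed the other way at 12 h. LOX was lower in PC-3 relative to CT1258 at 24 h (-1.69 ± 0.38, adjusted p = 0.00227). Its 12 h difference of -1.01 ± 0.37 (adjusted p = 0.0427) was lost under most alternatives.

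Between LNCaP and CT1258, 11 of 20 members differed at 12 h (4 lower and 7 higher in LNCaP) and 10 of 20 at 24 h (1 lower, 9 higher), compared with 40.2% and 21.1% of all genes. PFKL differed by 2.68 ± 0.35 at 12 h (adjusted p = 5.25e-06), and by 2.03 without the high LNCaP sample of replicate 2 (430 CPM). LOX differed by -2.32 ± 0.39 at 12 h (adjusted p = 7.74e-05) and -2.0 ± 0.38 at 24 h (adjusted p = 0.000812). MXI1 (-1.55 ± 0.23, adjusted p = 2.63e-05) and HK1 (1.24 ± 0.18, adjusted p = 1.57e-05) moved in opposite directions in the 2 lines at 12 h. ALDOC differed by 2.14 ± 0.21 at 24 h (adjusted p = 3.89e-07) and had log2 fold changes of 0.45 in LNCaP and -1.72 in CT1258. The base medium differed together with the cell line in all comparisons between lines, also between PC-3 and LNCaP. Species, aligner, annotation and depth differed as well between CT1258 and the human lines. The parts of all these in the differences between lines cannot be told apart.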

How the data were processed

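Counts of poly(A)-selected mRNA, sequenced as single reads, were analysed for 26 samples of PC-3, LNCaP and CT1258. The authors deposited whole-number read counts per gene without normalization, after mapping human reads to HG19 with STAR 2.3.1s and canine reads to CanFam3.1 with BWA, and used edgeR 3.14.0 themselves. The counts of 1 PC-3 sample were deposited as text with trailing separators, which were removed. Strand use in counting and the treatment of reads that fit several genes are not given in the sources used here. Replicate 1 of the PC-3 controls, which the study excluded, was not used here, and the replicate numbers of 2 PC-3 PDA-66 12 h samples are unclear.

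Each line was fitted on its own with R 4.3.3 and edgeR 4.0.16 (filterByExpr, TMM, quasi-likelihood F test on 3 groups, Benjamini-Hochberg adjustment over all genes tested, adjusted p under 0.001). The study's methods name edgeR and this threshold, but not which test of edgeR was used. CPM values use TMM-scaled library sizes, and log2 fold changes are those of the fit with SE. Python 3.11.15, pandas 2.3.3 and matplotlib 3.10.9 served for tables and figures, and the fits were tested on simulated data. The biological coefficient of variation was 0.0971 for PC-3, 0.24 for LNCaP and 0.1 for CT1258. Counting error comes on top for genes with few reads.

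The members, the role groups, the further lists and the marker lists were chosen with earlier results of these data known. Values per sample are given for HIF1A, EPAS1 and, for each line, up to 5 members in each direction with the largest log2 fold change among those called at either time (adjusted p under 0.001, in LNCaP under 0.05). Differences between lines are named for the 2 largest of each pair and time and for members past 0.05 in opposite directions. PGK1, LDHA, VEGFA in PC-3, and NDRG1, ALDOC, BNIP3, PFKL and TPI1 in LNCaP, were added after their values were seen. Alternatives were DESeq2 1.42.0 size factors and Wald test, no filter, limma 3.58.1 voom with sample quality weights, edgeR's exact test, fits of 2 groups, other thresholds, a replicate block, leaving out each sample, and thinning of the CT1258 DMSO counts to the mean total of its PDA-66 samples. A correction for GC content and length (spline of 4 degrees of freedom on the longest human transcript of the same symbol) was chosen after seeing the data. The canine genome was not used here.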

Additional observations from a re-analysis of the deposited data

Results flagged for a closer look

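The response to PDA-66 differed between cell lines for many members in the interaction test of edgeR (adjusted p under 0.05 over 11736 shared genes). Counted over the 27 members with a shared name, also those without a test in a single line, 14 differed between PC-3 and LNCaP at 12 h and 13 at 24 h. Between PC-3 and CT1258, 12 differed at 12 h and 11 at 24 h, and between LNCaP and CT1258, 13 and 10. Except for PC-3 and CT1258 at 12 h and LNCaP and CT1258 at 24 h, these counts include members that were not tested in both lines.

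PC-3 and LNCaP differed most for ALDOC (-1.87 at 12 h and -1.89 at 24 h, log2), NDRG1 (-1.85 at 12 h) and P4HA1 (-1.86 at 24 h). PC-3 and CT1258 differed for CA9 (-3.52 and -2.31), EGLN1 (-1.42 and -1.19), MXI1 (-1.95 and -1.28) and LOX (-1.01 and -1.69), each at 12 h and 24 h, and at 12 h for P4HA2 (1.40) and HK1 (0.99). LNCaP and CT1258 differed at 12 h for PFKL (2.68), LOX (-2.32), MXI1 (-1.55) and HK1 (1.24) and at 24 h for ALDOC (2.14) and LOX (-2.0). Of the 600 alternative values of these 20 single differences, 579 kept their direction and stayed past 0.05 and 21 kept the direction only, the latter all for LOX between PC-3 and CT1258 at 12 h. With the correction for GC content and length this difference of LOX was -0.58 (adjusted p = 0.147).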

How the results depend on the processing

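The numbers of members called are compared here with those of 28, 24 and 4 (PC-3 at 12 h, at 24 h and 24 h against 12 h), 0, 0 and 0 (LNCaP) and 13, 12 and 0 (CT1258). Requiring log2 fold changes of 1 or more in size left 16 members in PC-3 at 12 h, 1 in PC-3 24 h against 12 h, and 4 and 4 in CT1258. At an adjusted p under 0.05 there were 7 in PC-3 24 h against 12 h, 5 in LNCaP at 12 h and 5 in CT1258 24 h against 12 h. Voom gave 14 in PC-3 24 h against 12 h, 7, 8 and 10 in LNCaP and 5 in CT1258 24 h against 12 h. The exact test gave 10, 3 (LNCaP at 24 h) and 4, DESeq2 gave 2 in LNCaP at 12 h and 3 in CT1258 24 h against 12 h, and for the latter no filter gave 1, the fit of 2 groups 3 and the GC correction 2. Leaving out 1 sample gave 18 to 28, 18 to 26 and 0 to 5 in PC-3 (18 at 12 h without replicate 3 of that group), 0 to 1, 0 and 0 in LNCaP (1 without replicate 2 of the 12 h group), and 11 to 18, 9 to 15 and 0 to 3 in CT1258 (3 without DMSO replicate 2, 1 without DMSO replicate 3). The cause was not tested.

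Differences between lines at an adjusted p under 0.001 numbered 2 and 4 (PC-3 and LNCaP, 12 h and 24 h), 6 and 5 (PC-3 and CT1258) and 6 and 5 (LNCaP and CT1258), and voom gave 20 and 18 at 24 h for the pairs with PC-3. Leaving out 1 sample gave 9 to 17, 8 to 19, 9 to 16, 7 to 14, 10 to 14 and 9 to 13. The low values came without LNCaP DMSO replicate 3 (9) and, at 24 h, without any of 7 samples (8; DMSO replicate 3 and 24 h replicate 1 of PC-3, DMSO replicates 2 and 3 and each 24 h sample of LNCaP) or without PC-3 DMSO replicate 3 (7).

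Same-numbered samples did not deviate together (correlations of -0.42 to 0.185), so the numbers were not taken as pairing. With a replicate block, 16 members were called in PC-3 at 24 h, 0, 0 and 0 in LNCaP and 11, 12 and 0 in CT1258, and in PC-3 at 12 h no paired analysis was possible because the groups share 1 known number.

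Of 2393 alternative values of the single members named, 2070 kept direction and call, 188 lost and 111 gained a call and 24 changed sign. Of the latter, PFKFB3 in CT1258 at 12 h (0.012 with the GC correction) alone had been past 0.001. Leaving out 1 sample gave, in PC-3 at 12 h, ranges of -0.21 to 0.30 for HIF1A, -0.39 to 0.10 for PFKFB3 and -0.066 to 0.18 for PKM, and at 24 h -0.061 to 0.43 for HIF1A, -0.005 to 0.66 for P4HA2 and -0.055 to 0.18 for PKM, with the ends set by the 2 DMSO samples. In LNCaP it gave -0.33 to 0.13 (12 h) and -0.001 to 0.1 (24 h) for HIF1A and -0.11 to 0.21 for BHLHE40 at 24 h. In CT1258 at 24 h it gave -0.25 to 0.017 for KDM3A and -0.39 to 0.36 for ANKRD37. The GC correction turned HIF1A (-0.014) and PGAM1 (0.007) in PC-3 at 12 h, PFKFB4 (0.33) in CT1258 at 12 h and LOX (-0.002) and MXI1 (-0.046) there at 24 h. Voom turned HIF1A (0.13) and EPAS1 (0.015) in LNCaP at 12 h and ANKRD37 (0.41) in CT1258 at 24 h, and thinning turned ANKRD37 (0.011). Thinning the CT1258 DMSO counts to the depth of the PDA-66 samples gave 14 members at 12 h and 14 at 24 h.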
